A study of Mus musculus with 5 samples.

Results

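The 9 genes described here make up the core of the retinoid pathway that was followed: 4 nuclear receptors of retinoic acid and its partners (Rara, Rarb, Rarg, Rxra), 2 cellular retinoic acid binding proteins (Crabp1, Crabp2) and 3 retinal dehydrogenases (Aldh1a1, Aldh1a2, Aldh1a3). They were taken by gene symbol, in a rule that uses no measured value but was set with earlier results of these data known, and are 9 of the 27729 genes in the files. Total RNA was sequenced in 5 libraries of mouse embryonic fibroblasts (MEFs), connective tissue cells that the 5C medium turns into neuron-like cells. The day 0 library came from MEFs of ICR embryos, taken without head and inner organs, in medium with fetal bovine serum, and the other 4 came from such cells after 2, 5, 10 and 14 days in 5C. No transgene, virus or small-molecule inhibitor was part of any of these groups. The study's recipe of 5C is DMEM/F12 with the N2 supplement, 2-mercaptoethanol, vitamin C, LIF and basic FGF, and it names no retinoid. The labels call the medium 6C, and the text on treatment beside them gives day 15 where the label of the last library gives day 14. The labels also give 5000 cells per well, fewer than the study's usual plating.

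There was 1 library per day, so every difference between days lacks a replicate check and no test was possible. The MEFs are a mixed population, and the deposited values do not separate the cells. In such bulk samples, fewer cells of a type and less RNA per cell cannot be told apart. All 14 fibroblast markers, among them Col1a1, Dcn, Pdgfra, Thy1 and Twist2, had counts in every library. Of 9 neuron markers, Rbfox3, which defines mature neurons, was at 0 in all 5 libraries. On day 14 there were 3 over 2-fold above day 0 (Tubb3, Snap25, Nefl) and 3 over 2-fold below (Map2, Syn1, Stmn2). Some of these rest on few counts. From day 0 to day 14 Snap25 went from 0 to 7.01 counts, Nefl from 1.67 to 5 and Syn1 from 14 to 6. Snap25 and Nefl were highest on day 5, at 22 and 83 counts. Each library summed to between 2253748 (day 2) and 3890334 (day 0) expected counts, the reads that RSEM assigned to a gene. At these depths 3 counts, taken here as the floor, stand for between 0.771 and 1.33 per 1000000 counts. The 10 most abundant genes took 14.2% of the counts on day 2 and between 6.30% and 8.57% in the other libraries.

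Cells make retinoic acid from vitamin A in steps. Retinol is oxidized to retinal by retinol dehydrogenases such as Rdh10, and retinal is oxidized to retinoic acid by the Aldh1a enzymes. The acid is carried in the cell by Crabp1 and Crabp2, is broken down by Cyp26 enzymes, and acts through heterodimers of a retinoic acid receptor (RAR) with a retinoid X receptor (RXR) on DNA elements near target genes. The pathway is best known for patterning the hindbrain and spinal cord and for driving neuronal differentiation in culture. Rarb is a classic direct target, and its promoter holds a retinoic acid response element.

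Such an element is a pair of half-sites in the same direction. Promoter windows of 300 bases, 250 before and 50 after a transcript start, were available from RefSeq (GRCm38.p6) for 7 of the 9 genes, in 13 windows. These were searched on both strands for direct repeats of the half-site AGGTCA, its variant AGTTCA, its variant GGGTCA or its variant GGTTCA, with 1, 2 or 5 bases between. Crabp2 and Aldh1a3 had no window and were not searched. Among the windows searched, only the Rarb window held a match. It is a direct repeat with 5 bases between, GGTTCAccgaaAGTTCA, at chr14:16575513-16575529 on the minus strand, from 53 to 37 bases before the start. Such a repeat was present in 0.0974% of all 32851 mouse promoter windows (32 windows). Repeats with 1 and 2 bases between were present in 0.222% and 0.268% of them. The 250 bases before the start are given for Rarb, with the half-sites in capitals, and for comparison for Crabp1 and Aldh1a2, the binding protein and the enzyme with the largest differences between days, whose windows held none of the spelled repeats. They run 5′ to 3′ on the strand of the gene, at chr14:16575477-16575726 (minus strand), chr9:54764498-54764747 (plus strand) and chr9:71215539-71215788 (plus strand).
Rarb: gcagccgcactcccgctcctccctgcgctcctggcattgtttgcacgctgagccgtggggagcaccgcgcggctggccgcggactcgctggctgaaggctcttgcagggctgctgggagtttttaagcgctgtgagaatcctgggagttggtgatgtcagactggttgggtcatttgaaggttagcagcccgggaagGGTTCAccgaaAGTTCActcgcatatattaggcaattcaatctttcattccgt
Crabp1: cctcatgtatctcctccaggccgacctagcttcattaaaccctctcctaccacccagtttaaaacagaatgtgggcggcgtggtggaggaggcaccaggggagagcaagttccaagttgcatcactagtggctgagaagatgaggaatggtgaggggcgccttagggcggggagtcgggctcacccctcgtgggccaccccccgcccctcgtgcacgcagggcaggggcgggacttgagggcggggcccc
Aldh1a2: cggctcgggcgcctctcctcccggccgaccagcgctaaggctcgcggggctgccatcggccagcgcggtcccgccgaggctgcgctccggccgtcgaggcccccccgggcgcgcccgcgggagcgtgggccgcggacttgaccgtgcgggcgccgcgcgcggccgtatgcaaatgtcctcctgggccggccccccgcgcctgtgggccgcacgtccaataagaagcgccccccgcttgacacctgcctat
The bases shown were 58% G or C for Rarb, 63.6% for Crabp1 and 77.6% for Aldh1a2. A match of letters is a description of the sequence, and no binding to these windows was measured here.

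Levels of different genes can be compared only per gene length, as TPM, the transcripts per 1000000 that RSEM estimates. Crabp1 was the most abundant of the 9 genes in every library. It stood at 318 TPM in the day 0 library and at 4555, 5005, 2160 and 1666 TPM in the 4 later ones. On day 5, 99.9% of the 13346 genes kept (10 or more expected counts in at least 1 library) had a lower TPM than Crabp1. On day 0 the order below it was Crabp2, Rarg, Rara, Rxra, Aldh1a1, Aldh1a2, Rarb and Aldh1a3. Rxra and Aldh1a1 were not apart beyond their 95% counting intervals, nor were neighbours among the last 3 genes. On day 14 the order was Crabp1, Aldh1a2, Crabp2, Rarg, Rxra, Rara, Aldh1a3, Aldh1a1 and Rarb. Aldh1a2 had moved from place 7 to place 2, and of the 8 pairs of neighbours, 5 had intervals apart and 3 overlapped, namely Crabp2 with Rarg, Rxra with Rara and Rara with Aldh1a3. These intervals, like all others below, cover counting error only.

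**Figure D1:**
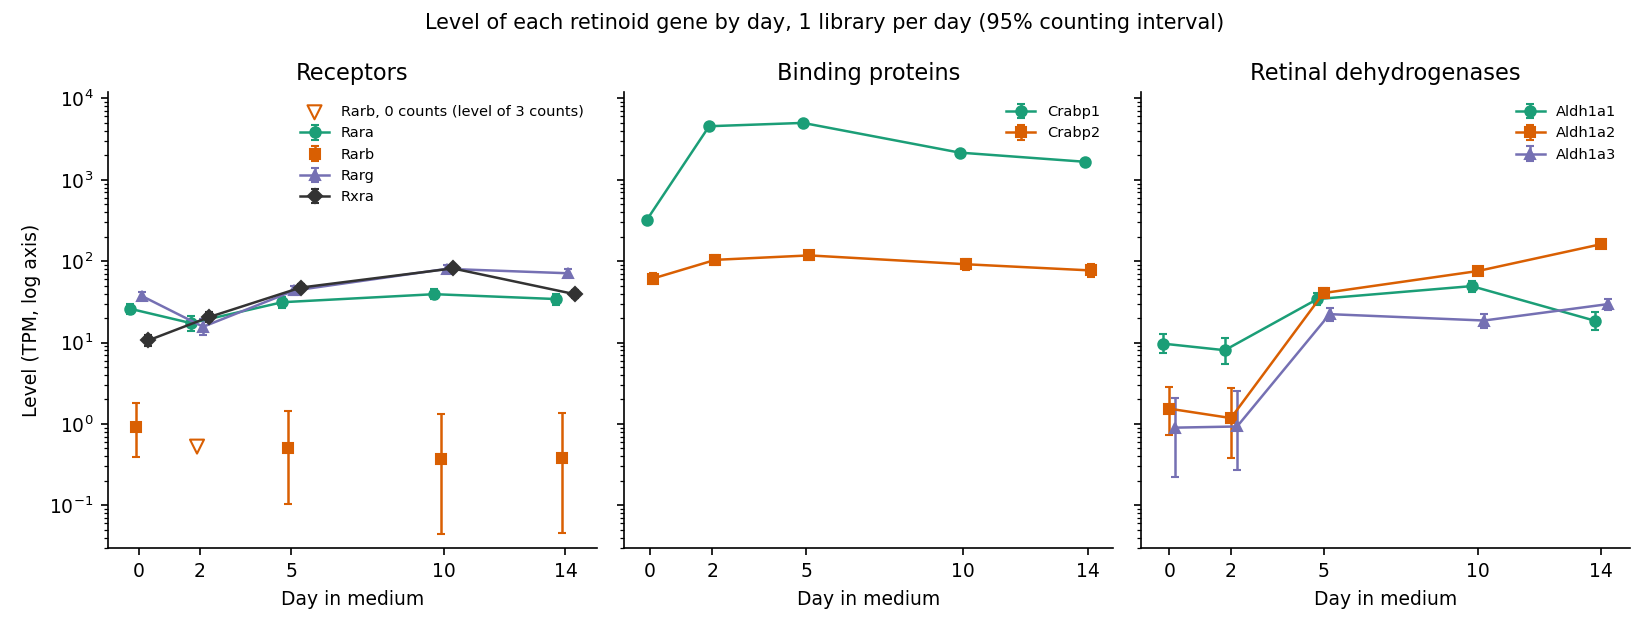
Level of each gene in TPM (log axis) against the day in 5C medium, in 3 panels for receptors, binding proteins and retinal dehydrogenases. Points are single libraries, bars are exact 95% Poisson intervals, and the open triangle marks the level of 3 counts for Rarb on day 2, which had 0. Crabp1 lies far above all other genes from day 2 onward, and Aldh1a2 and Aldh1a3 leave the level of the first 2 libraries on day 5.

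Among the receptors, Rara, which encodes the widely expressed RARα, had 205, 97, 179, 200 and 162 expected counts from the first library (day 0) to the last (day 14). After division by library size (TMM) these became normalized counts of 203, 175, 157, 143 and 145. No day stood past 2-fold from day 0. The log2 difference from day 0, taken on normalized counts with a pseudocount of 1, was -0.50 on day 10 with an interval of -0.80 to -0.22, and -0.48 on day 14 with an interval of -0.79 to -0.18. The sign of these small differences depended on the unit, since TPM gave 0.58 on day 10 and 0.38 on day 14 where the median of all kept genes was itself at 1.09 and 0.78. Relative to that median the TPM differences of Rara were -0.52 and -0.40.

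Rarg, the RAR best known from skin and skeleton, had 291, 80, 243, 337 and 329 expected counts, or 288, 145, 213, 241 and 294 normalized counts. The day 2 library was the lowest and the day 0 and day 14 libraries were alike. On day 2 the log2 difference from day 0 was -0.99, just inside 2-fold, with an interval of -1.37 to -0.63. With total counts as the scaling it was -1.07 and with TPM -1.20, both past 2-fold. On day 14 it was 0.03 with an interval of -0.20 to 0.26, and 0.92 in TPM, beside the median of 0.78 over all kept genes.

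Rarb gave 8, 0, 3, 2 and 2 expected counts, the smallest numbers of the 9 genes from day 2 on, and was the one gene that missed the minimum of 10. With 3 counts put in place of 0 on day 2, the gene stood 1.46-fold lower there than on day 0, a value without counting error. The intervals of its log2 difference from day 0 held 0 on days 2, 5 and 14, and on day 10 ran from -5.74 to -0.15. The gene whose window holds the repeat given above thus lay between 0 and 0.92 TPM. Its annotated exons overlap those of Top2b on the opposite strand, and whether the counting used strand is not given in the sources used here.

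Rxra encodes RXRα, the partner of the RARs and of several other nuclear receptors. It had 150, 191, 461, 708 and 321 expected counts, or 148, 346, 403, 506 and 287 normalized counts. Every later library was above day 0, with the highest value on day 10. The fold over day 0, taken without a pseudocount, was 2.33 (interval 1.87 to 2.90) after 2 days, 2.72 (2.26 to 3.29) after 5, 3.41 (2.85 to 4.09) after 10 and 1.93 (1.59 to 2.36) after 14. Of all kept genes, 87.8%, 86.6%, 83.7% and 74.5% had a lower log2 difference from day 0 than Rxra on these 4 days. Between days 10 and 14 the log2 difference of Rxra was -0.82 with an interval of -1.01 to -0.62. Rxra has the longest transcripts of the 9 genes, and after centring on genes of like length the 4 differences from day 0 were 1.34, 1.10, 0.97 and 0.49. Day 2 was then the highest library, and days 10 and 14 were inside 2-fold, where normalized counts gave 1.76 on day 10. In TPM the day 2 difference was 0.89, also inside 2-fold.

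Per length, Rxra stood at 0.286 times the level of Rarg at the start (0.233 to 0.350) and at 1.32 times after 2 days (1.01 to 1.73). On days 5 and 10 their ratio was 1.08 and 1.01, with intervals that held 1, and on day 14 it was 0.554 (0.474 to 0.648). Among the RAR genes, Rarg held 57.9% of the TPM at the start (53.5 to 62.3%), 47.4% after 2 days (39.8 to 55.1%) and 67.2% after 14 (62.9 to 71.3%). Rarb held at most 1.44%, on day 0.

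The other RXR genes, which are not among the 9, differed from Rxra. Rxrb, a broadly expressed RXR, had normalized counts of 143, 134, 139, 112 and 195, all within 2-fold of day 0. In TPM its log2 difference on day 14 was 1.56, past 2-fold, beside the median of 0.78 over all kept genes. Rxrg, the RXR known from muscle and parts of the nervous system, had 0 expected counts on days 0 and 2, then 42, 125 and 85. With 3 counts put in place of 0 in the day 0 library, these stood 12.4-fold, 30.1-fold and 25.6-fold higher, values without counting error. The counting interval of the log2 difference on day 14 began at 4.35. Rxrg held 22.4% of the summed TPM of the RXR genes on day 10 (19.2 to 25.8%).

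The binding proteins differed in size of change. Crabp1, which binds retinoic acid in the cytosol, had 715, 6640.69, 7852, 3039 and 2283.61 expected counts. Normalized counts were 708, 12014, 6871, 2170 and 2041, so that day 2 was the highest library and all 4 later libraries were above day 0. The fold over day 0 was 17.0 (interval 15.7 to 18.4) after 2 days, 9.71 (8.99 to 10.5) after 5, 3.07 (2.83 to 3.33) after 10 and 2.89 (2.65 to 3.14) after 14. On day 2 the change of Crabp1 exceeded that of 99.4% of the kept genes.

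Whether Crabp1 was lower on day 5 than on day 2 depended on the scaling, so no direction is given for it. On normalized counts it was 1.75-fold lower, a log2 difference of -0.81. Total counts gave -0.35 and quantile normalization -0.02, while TPM gave 0.14 and centring on genes of like length 0.15. Crabp1 has short transcripts, 802 bases in the files. Centred on genes of like length, its log2 difference from day 0 was 3.87, 4.07, 3.09 and 2.57 in the 4 later libraries, where normalized counts gave 4.08, 3.28, 1.62 and 1.53. All of these stood past 2-fold. From day 5 to day 10 the log2 difference was -1.66 on normalized counts, -1.21 in TPM and -0.92 after centring on length.

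Crabp2, which delivers retinoic acid to the RARs in the nucleus, had 161, 178, 215.51, 149 and 123 expected counts. Normalized counts were 159, 322, 189, 106 and 110, with day 2 the highest. Day 2 stood 2.02-fold above day 0 (interval 1.62 to 2.52), at the edge of the threshold, and 5 of the 7 other scalings and pseudocounts put it inside 2-fold. On days 10 and 14 the log2 difference from day 0 was -0.58 and -0.53 on normalized counts, but 0.90 and 0.51 after centring on length and 0.58 and 0.33 in TPM, so no direction is given for it.

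A ratio of genes within a library does not depend on the scaling between libraries. Crabp1 stood at 5.20 times the TPM of Crabp2 on day 0 (interval 4.37 to 6.21). The ratio was 43.8 (37.8 to 51.2) after 2 days, 42.5 (37.1 to 48.8) after 5, 23.6 (20.0 to 28.0) after 10 and 21.7 (18.1 to 26.2) after 14. The day 0 interval lay below that of every later library, and the intervals of days 2 and 5 lay above those of days 10 and 14.

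The retinal dehydrogenases make retinoic acid. Aldh1a2, the main enzyme of the early embryo and of the spinal cord's motor neurons and meninges, had 10, 5, 182, 303 and 634 expected counts, or 9.90, 9.05, 159, 216 and 567 normalized counts. The first pair of libraries was alike and low, and each library from day 5 on was above the one before. The fold over day 0 was 16.1 (interval 8.55 to 34.1) after 5 days, 21.9 (11.7 to 46.1) after 10 and 57.3 (30.9 to 120) after 14. The step between the last pair of libraries was 2.62-fold (2.28 to 3.01). Among all kept genes, 99.0% had a smaller log2 difference from day 0 on day 14 than the 5.70 of Aldh1a2.

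Aldh1a3, the enzyme known from the eye, the nose and the forebrain, had 4.40, 3.73, 112.48, 102.18 and 157.44 expected counts, or 4.35, 6.75, 98.4, 73.0 and 141 normalized counts. It too was low on days 0 and 2 and higher in the 3 later libraries. The fold over day 0 was 22.6 (interval 9.40 to 92.4) after 5 days, 16.8 (6.97 to 68.8) after 10 and 32.3 (13.6 to 132) after 14. With 4.40 counts on day 0, the lower bounds describe these folds better than their middle values. From day 5 to day 10 the log2 difference was -0.43 (-0.83 to -0.03), and from day 10 to day 14 it was 0.94 (0.58 to 1.32). The counts of Aldh1a3 were not whole in any of the 5 libraries.

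Aldh1a1, the enzyme of the adult retina and of dopaminergic neurons, had 57, 31, 139.14, 179.25 and 65.64 expected counts, or 56.4, 56.1, 122, 128 and 58.7 normalized counts. Days 5 and 10 were high and the other 3 libraries were alike on this scale. In TPM, day 14 (18.5, interval 14.4 to 23.7) was above day 0 (9.70, interval 7.35 to 12.6), a log2 difference of 0.87 beside the median of 0.78 over all kept genes. The fold over day 0 was 2.16 (interval 1.57 to 2.99) after 5 days, 2.27 (1.67 to 3.11) after 10 and 1.04 (0.723 to 1.52) after 14. Of all kept genes, 81.6% on day 5 and 74.9% on day 10 had a lower log2 difference from day 0 than Aldh1a1. Quantile normalization put the day 5 difference at 0.97, just inside 2-fold. From day 10 to day 14 the log2 difference was -1.11 (-1.55 to -0.70). Aldh1a7, a close paralog beside it on chromosome 19, had 1, 5, 2.86, 42.75 and 113.36 expected counts. Both genes had fractional counts in 3 libraries, so the division of shared reads between them is uncertain.

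The make-up of the enzyme family differed between the first and the last library. Aldh1a1 held 79.9% of the summed TPM of the 3 enzymes on day 0 (interval 69.2 to 88.8%) and 8.81% on day 14 (6.92 to 11.1%), with 79.2%, 35.2% and 34.4% between. Aldh1a2 held 12.7% in the first library (6.26 to 22.3%) and 77.1% in the last (74.3 to 79.7%), with 11.6%, 41.8% and 52.7% between. The summed level was 12.1, 10.2, 97.2, 144 and 210 TPM over the 5 libraries. In TPM the median log2 difference of all kept genes from day 0 was itself 0.61, 1.09 and 0.78 on days 5, 10 and 14. The ratio of Aldh1a2 to Aldh1a1 was 0.159 on day 0 (0.0723 to 0.314) and 8.75 on day 14 (6.75 to 11.4). The intervals of these shares and ratios do not cover the uncertain division of shared reads between Aldh1a1 and Aldh1a7.

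**Figure D2:**
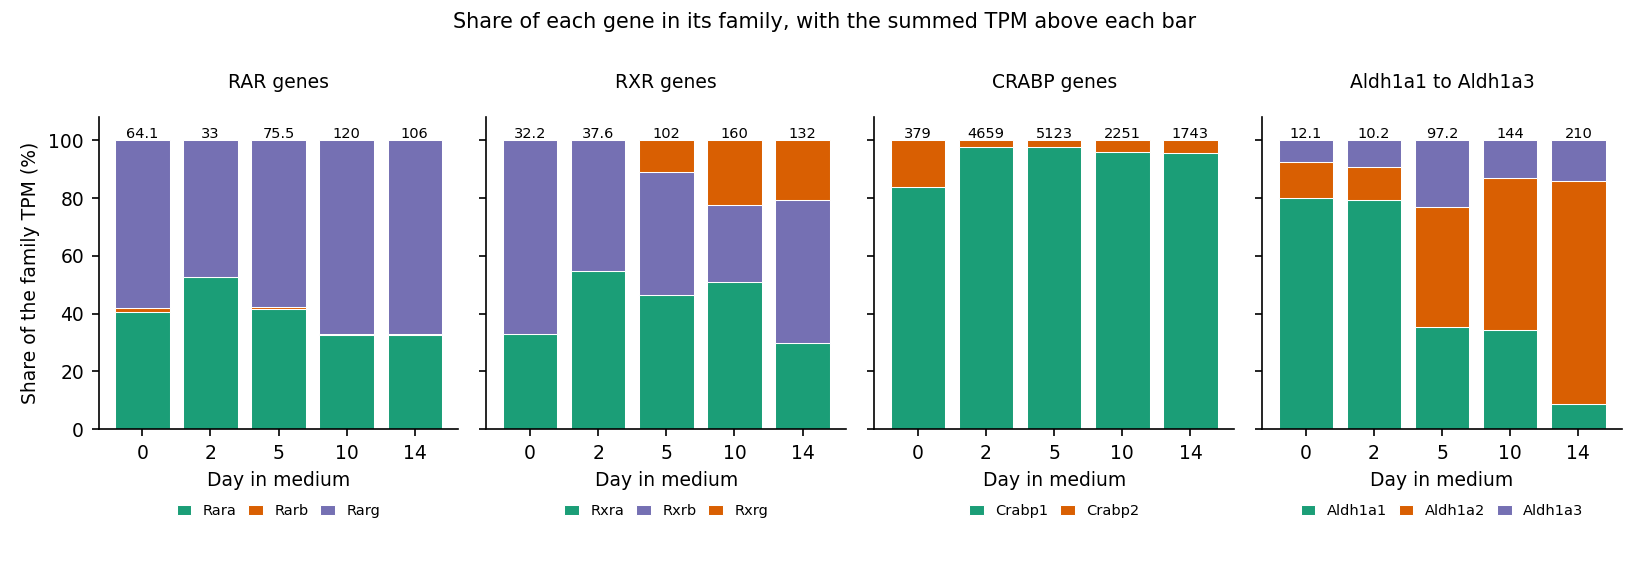
Share of each gene in the summed TPM of its family (percent) on each day, with the summed TPM written above each bar, for the RAR, RXR, CRABP and Aldh1a genes. Bars are single libraries. Aldh1a1 holds 79.9% of its family on day 0 and Aldh1a2 77.1% on day 14, and Rxrg appears from day 5.

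Against day 0, 3 of the 8 genes above the count minimum were over 2-fold higher on day 2 (Rxra, Crabp1, Crabp2). On days 5 and 10 there were 5 (Rxra, Crabp1 and the 3 Aldh1a genes), and on day 14 there were 3 (Crabp1, Aldh1a2, Aldh1a3). Of all 13346 kept genes, 15.2%, 20.2%, 28.7% and 24.5% were over 2-fold higher in these libraries. None of the 8 was over 2-fold lower on any of these days, where 13.1%, 13.6%, 22.3% and 19.9% of all kept genes were. The median log2 difference of the 8 genes was 0.26, 1.27, 1.39 and 0.50 on days 2, 5, 10 and 14, beside -0.03, 0.05, 0.14 and 0.07 over all kept genes. All 4 comparisons share the day 0 library. The split of all calls depended on the scaling: 55.2% of the genes past 2-fold on day 14 were above day 0 with TMM, 70.4% with total counts and 85.6% with TPM.

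**Figure D3:**
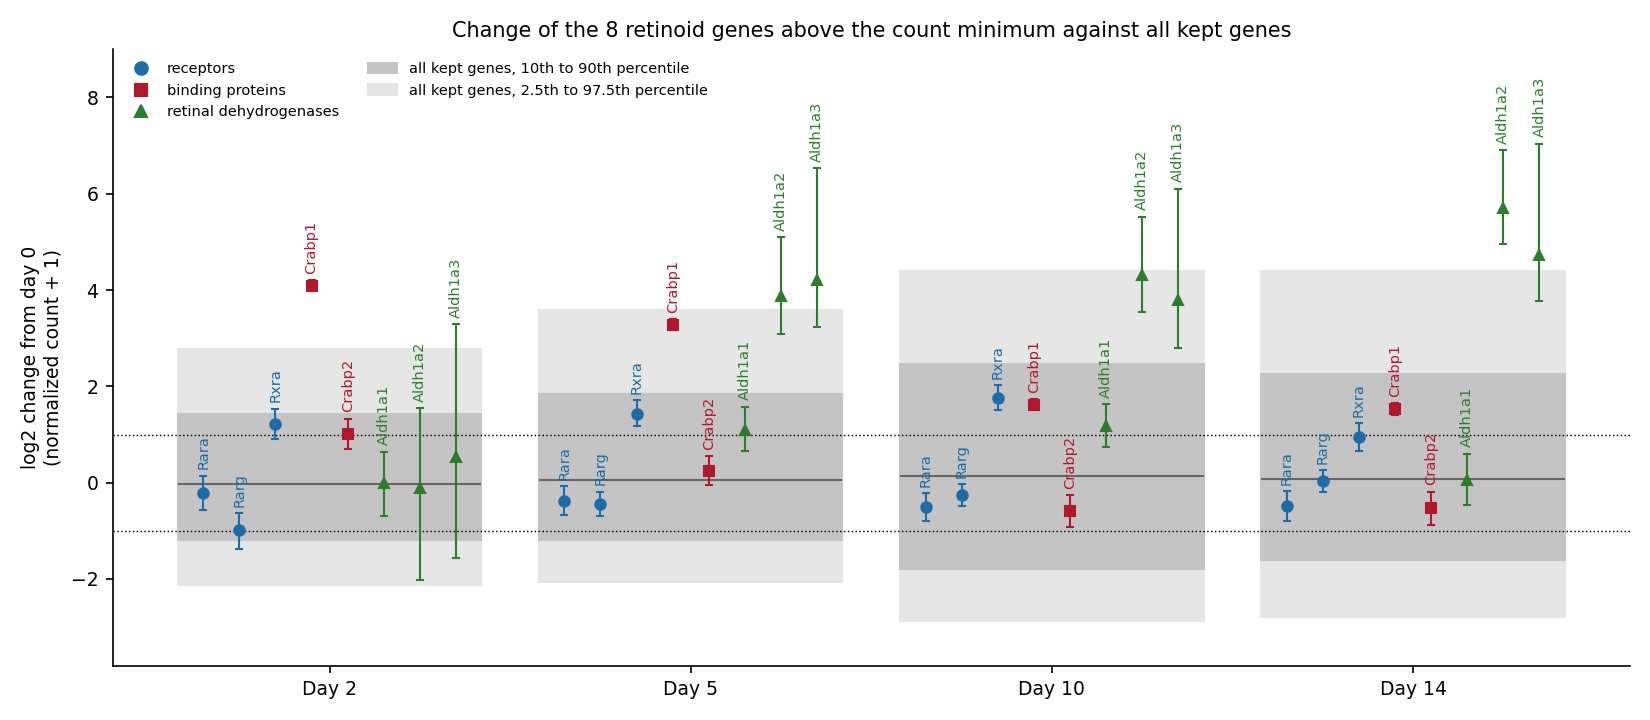
log2 difference from day 0 (normalized count plus 1) of the 8 genes above the count minimum on days 2, 5, 10 and 14. Points are single-library values with exact 95% counting intervals, grey bands show where the central 80% and 95% of all 13346 kept genes lie, the grey line is their median and dotted lines mark 2-fold. Crabp1 on day 2, Aldh1a2 and Aldh1a3 on days 5 and 14 lie above the wider band. Rara, Rarg, Rxra, Crabp2 and Aldh1a1 lie inside the narrower band on every day shown, and Crabp1 does on days 10 and 14.

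Between neighbouring libraries the timing of the genes separated. From day 2 to day 5, 3 of the 8 genes were over 2-fold higher, all of them enzymes (Aldh1a1, Aldh1a2, Aldh1a3), beside 19% of all kept genes. Their folds were 2.17 (interval 1.46 to 3.31), 17.6 (7.41 to 54.9) and 14.6 (5.15 to 50.6). Of these, Aldh1a1 came inside 2-fold with quantile normalization (0.93), and the receptors Rarg (1.42 with TPM, 1.01 with total counts) and Rxra (1.16 with TPM) went past it. Over this step the median of all kept genes was itself at 0.86 with TPM and 0.56 with total counts. Between days 5 and 10 only Crabp1 was past 2-fold, and lower, beside 9.5% of all kept genes, and it too was inside 2-fold after centring on length (-0.92). From day 10 to day 14 Aldh1a2 was over 2-fold higher, beside 4.73% of all kept genes, and Aldh1a1 over 2-fold lower, beside 8.33%.

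The genes whose 4 log2 differences from day 0 lay nearest to those of a member, by root mean square difference among 8256 genes with 100 or more counts in at least 1 library, were as follows. Nearest to Crabp1 was Adam8, a membrane protease, at a distance of 0.31 and with differences of 4.03, 3.84, 1.80 and 1.69, and then Itgb3, a subunit of the vitronectin receptor, at 0.45 and Enpp1, an ectonucleotidase, at 0.49. Nearest to Aldh1a2 were Slc6a9, a glycine transporter (0.44), Gldn, which encodes gliomedin of the Schwann cell's nodal microvilli (0.47), and Nell1 (0.52). Aldh1a3 had 1500015O10Rik (0.64), C1ra (0.64) and Aldh1a2 itself (0.67). Rxra had Twsg1 (0.11) and Parp10 (0.16) among its 3 nearest, Crabp2 had Dact3 (0.03), Gpx7 (0.07) and Lrwd1 (0.09), and Aldh1a1 had Prc1 (0.11), Fnbp1 (0.14) and Psd3 (0.16). These are descriptions over 4 points that share the day 0 library.

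The rest of the pathway was followed with lists of 84 other genes, of which 61 were above the count minimum. Over 2-fold above day 0 were 8, 10, 21 and 16 of the 61 in the 4 later libraries (13.1%, 16.4%, 34.4% and 26.2%), and over 2-fold below were 11, 8, 9 and 8 (18.0%, 13.1%, 14.8% and 13.1%). The shares of all kept genes stand above. Their median log2 difference was 0.44 on day 14, beside 0.07 over all kept genes.

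Genes of retinol uptake and storage stand upstream of the Aldh1a enzymes. Stra6, the membrane receptor for retinol carried in plasma, had at most 1 count. Of 10 genes of retinol transport and storage 4 were kept, and on day 14 the 1 over 2-fold higher was Lpl, the lipoprotein lipase, with a log2 difference of 4.73 (interval 4.43 to 5.07). This was 25% of the 4, beside 24.5% of all kept genes. Lpl is also abundant in adipocytes, and the summed TPM of 6 adipocyte markers was 39.5, 77.9, 394, 1218 and 1996 over the 5 libraries, with Adipoq and Plin1 at 0 on days 0 and 2. The part of such cells in the Lpl values was not tested.

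Of 18 oxidoreductases of retinol and retinal, 12 were kept, and on day 14 there were 5 over 2-fold higher (Rdh5, Rdh12, Dhrs3, Adh1, Adh7) and 2 over 2-fold lower (Rdh13, Dhrs9). These were 41.7% and 16.7% of the 12, beside 24.5% and 19.9% of all kept genes. Rdh5 and Rdh12 were named after their values were seen, as they fall outside the rule for naming. Rdh10, the main embryonic retinol dehydrogenase, had normalized counts of 50.5, 41.6, 77.0, 60.0 and 95.6, inside 2-fold throughout, though its day 14 difference was 1.26 with total counts and 1.17 in TPM. Dhrs3, which turns retinal back to retinol, had 155, 119, 79.6, 130 and 466, with the highest library on day 14 at a log2 difference of 1.58 (1.32 to 1.85). The alcohol dehydrogenases Adh1 and Adh7 stood at 1.39 (0.84 to 2.04) and 2.66 (1.32 to 5.39) on that day. Dhrs9 went from 31 expected counts to 1, a log2 difference of -4.06 (-10.45 to -2.52). Rdh13 stood at -1.13 on normalized counts but at -0.05 in TPM.

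Genes of retinoic acid breakdown were close to the floor. Cyp26a1, the enzyme whose gene responds most sharply to retinoic acid, had 0 counts in all 5 libraries, where 3 counts would stand for between 0.591 TPM (day 0) and 0.979 TPM (day 14). Cyp26b1 had 14, 3, 12, 18 and 9 expected counts, with intervals of the log2 difference from day 0 that held 0 on every later day. It was over 2-fold below day 0 on day 2 (-1.21), as was Cyp2s1 (-1.50, from 7 counts to 1), the other gene kept of the 4 in this list and named after its values were seen. Their intervals, -3.79 to 0.49 and -7.43 to 1.02, both held 0.

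Of 25 genes widely listed as retinoic acid targets, 19 were kept, and 4 were over 2-fold above day 0 on day 14 while 4 were over 2-fold below. That was 21.1% in each direction, near the 24.5% above and 19.9% below over all kept genes. The 4 above were Rarres2, which encodes the chemoattractant chemerin, Dhrs3, the zinc finger gene Tshz1 and the transcription factor gene Ets1, which was named after its values were seen. Rarres2 had 1.21, 6.33, 113.04, 391.04 and 539.86 expected counts, and its log2 difference on day 14 was 7.78 with an interval of 6.45 to 14.24. Tshz1 stood at 1.52 (0.99 to 2.13), and at 0.96 after centring on length. Among those below, Tgm2, the tissue transglutaminase, stood at -1.27 (-1.62 to -0.95), and Rarres1, also named after its values were seen, went from 20 expected counts in the day 0 library to 3 in the last. The median of the 19 was -0.16, beside 0.07 over all kept genes. With TPM, Tgm2 was at -0.39, beside a median of all genes of 0.78.

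Crabp1 belongs to the family of fatty acid binding proteins, of which 4 others were measured. Fabp3, the heart type, went from 455.46 expected counts on day 0 to 38.19, 90.91, 41.79 and 32, with a log2 difference of -3.93 (-4.54 to -3.46) on day 14. Fabp4, the adipocyte type and 1 of the 6 adipocyte markers, went from 62 to 80.99, 455, 1185.51 and 1874.49. Coregulators of nuclear receptors were measured in 14 genes, all kept. On days 2 and 5 none of them was over 2-fold higher, and Tacc1 was over 2-fold lower on day 2. On day 10, 7 of them (50%) were over 2-fold higher, beside the 28.7% of all kept genes. This day 10 count is given with TMM only. On day 14 there were 2 (14.3%, beside 24.5% of all kept genes). Alternatives gave 6 with total counts, 9 with TPM and 1 with quantile normalization or centring on length. The 2 were the coactivator genes Ncoa2, at 1.76 (1.22 to 2.40), and Tacc1, at 1.03 (0.70 to 1.39), which fell inside 2-fold (0.47) after centring on length. None was over 2-fold lower on days 10 and 14. Of 13 other nuclear receptors that pair with RXR 8 were kept, and Nr4a2 (log2 difference 3.39, interval 2.59 to 4.61), Nr1h3 (2.64, 1.72 to 4.06) and Thra (2.47, 2.19 to 2.78) were over 2-fold higher on day 14. These encode Nurr1, the oxysterol receptor LXRα and the thyroid hormone receptor α. Vdr, the vitamin D receptor, was over 2-fold lower, from 14 to 1 expected counts, and was likewise named after its values were seen. The genes above and below were 37.5% and 12.5% of the 8, beside 24.5% and 19.9% of all kept genes.

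Markers of other cell types moved over the same days as the enzymes and Rxrg. The 10 markers of Schwann cells and neural crest summed to 45.7, 117, 395, 2547 and 3328 TPM over the 5 libraries, all 10 were detected in every library, and all 10 were over 2-fold above day 0 on day 14. Of these, Sox10 had 7, 12, 320, 1478 and 2230 expected counts. The 11 macrophage markers summed to 68.9, 591, 1827, 1270 and 787 TPM, with Ptprc at 0 on day 0. The 9 neuron markers summed to between 53.5 and 121 TPM, with Stmn2 at 83.1 TPM on day 0 and 55.4 TPM on day 14 and Tubb3 at 4.19 and 55.8 TPM. Their sum on days 0 and 14 was 104 and 121 TPM, but 683 and 385 normalized counts. The direction between these days thus depended on the unit. The 6 astrocyte markers summed to 5.77, 30.5, 60.1, 146 and 115 TPM, with Gfap at 0 on day 0. The 5 mesothelium markers, which include Wt1, summed to between 60.6 and 138 TPM, and on day 14 Upk3b and Lrrn4 were over 2-fold above day 0 and Msln over 2-fold below. Their sum on days 5 and 10 was above day 0 in TPM (138 and 132, against 95.9). In normalized counts it was below (502 and 357, against 560). The 14 fibroblast markers summed to 16316, 14150, 14950, 22468 and 29641 TPM. Largest in the day 0 sum were S100a4 (7513 TPM, and 2442 on day 14) and Vim (6775 TPM, and 15668 on day 14). On day 14, 5 fibroblast markers (Col3a1, Dcn, Lum, Pdgfra, Postn) were over 2-fold above day 0. Another 4 (Thy1, S100a4, Twist2, Prrx1) were over 2-fold below. Of all kept genes, 24.5% were over 2-fold above and 19.9% below on that day. Muscle, endothelium and epithelium markers were lowest on day 14, at 11.3, 2.64 and 7.78 TPM. The part of any of these cells in the values of the retinoid genes was not tested.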

How the data were processed

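RNA of MEFs on day 0 and on days 2, 5, 10 and 14 of 5C was measured in 5 libraries (TruSeq RNA kit), grouped by the day in their labels. The deposited files hold expected counts, RSEM's estimates of reads per gene that need not be whole, and the authors' TPM and FPKM values, which are divided by gene length. The submitters' processing notes name Bowtie, RSEM and mm10. Versions, annotation and strand setting are not given in the sources used here. TPM values served for levels between genes, and FPKM values only as an alternative for family shares. Effective library sizes came from the TMM method of edgeR 4.0.16 (R 4.3.3) on rounded expected counts. Normalized counts were expected counts divided by these sizes and scaled to their geometric mean. Genes that reached 10 expected counts in any library were kept (13346). A difference past 2-fold was called. With 1 library per day no test was possible. Intervals of 95% were exact (Clopper-Pearson for ratios and shares, Poisson for levels, on rounded counts) and cover counting error only. Folds and intervals have no pseudocount, and log2 differences have a pseudocount of 1. Coordinates of gene overlaps came from GENCODE M21 (GRCm38), and promoter windows from RefSeq. The members and lists were chosen with earlier results of these data known. Named were the 9 members, up to 3 genes per list and direction with the largest difference past 2-fold on day 14 among those with 30 or more counts, a set of pathway genes whatever their values (among them Rxrb, Rxrg, Cyp26a1, Cyp26b1, Dhrs3, Rdh10, Stra6), and the 3 nearest profiles of each member past 2-fold. Some genes that this rule names are not reported here. Calling and intervals were tested on simulated data. Alternatives were DESeq2 1.42.0 size factors, total counts, TPM, quantile normalization, centring on gene length in 10 bins, pseudocounts of 5 and 0.5, other filters, and a call that also needed an interval without 0. Other computations were made in Python 3.11.15 (scipy 1.17.1, pandas 2.3.3, numpy 2.4.6, with figures by matplotlib 3.10.9).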

Additional observations from a re-analysis of the deposited data

How the results depend on the processing

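No paired analysis was possible because there was 1 library per day. No member past 2-fold with TMM changed sign under any alternative tried. DESeq2 size factors, a pseudocount of 0.5, a minimum of 30 counts and the call that also needed an interval without 0 left the number of members past 2-fold as it was on each day. With TPM, 1 member (Crabp1) was over 2-fold above day 0 on day 2 in place of 3. Over 2-fold below day 0, where TMM gave 0, was 1 member on day 2 with total counts or TPM (Rarg), and 1 (Rarb, with 8 or fewer counts) on each later day without a filter. Of single calls, Rxra came inside 2-fold on day 2 with TPM (0.89) and on day 10 after centring on length (0.97), Aldh1a1 on day 5 with quantile normalization (0.97), and Crabp2 on day 2 under 5 alternatives (0.75 to 0.99). Past 2-fold only under an alternative were Rarg on day 10 with TPM (1.10), Rxra on day 14 with total counts (1.30) or TPM (1.80), and Crabp2 on day 5 after centring on length (1.04). For Rarg on day 10 the sign also differed, since TMM gave -0.26. The TPM median of all kept genes on that day was 1.09. Other pathway genes above day 0 on day 14 numbered 25 with total counts and 35 with TPM in place of 16, and those below numbered 5 with TPM and 5 with a minimum of 30 counts in place of 8. TPM moved the median log2 difference of all kept genes to -0.20, 0.61, 1.09 and 0.78 on days 2, 5, 10 and 14, and total counts to -0.11, 0.41, 0.60 and 0.42. Of all kept genes, 1055, 4269, 7057 and 5548 were then above day 0 with TPM (2023, 2690, 3826 and 3268 with TMM) and 531, 904 and 930 below on days 5, 10 and 14 (1821, 2974 and 2657). Total counts gave 1007 and 1929 below on days 5 and 10, and 3529 were above on day 2 without a filter. The share of calls above day 0 was 36.0%, 88.9%, 88.6% and 85.6% with TPM and 48.3%, 79.1%, 73.1% and 70.4% with total counts, where TMM gave 53.7%, 59.6%, 56.3% and 55.2%. Depth limits Rarb in every library and Aldh1a2 and Aldh1a3 on days 0 and 2, all at 10 or fewer counts, so the size of their folds is known only within wide counting intervals.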
